A study of Mus musculus with 6 samples.

Results

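Nuclear receptors are transcription factors that bind DNA through zinc fingers and, in most cases, change their action when a small lipid-soluble ligand such as a steroid, a retinoid, a thyroid hormone, a bile acid or an oxysterol binds them. The 46 genes described here are those of the mouse superfamily on a list made for this account, matched by symbol to the Ensembl identifiers of the count files. All 46 were found among the 55487 genes listed. They were examined in LSK cells, marrow cells sorted for c-KIT and SCA1 after lineage-marked cells were removed, a gate in which haematopoietic stem cells and early progenitors are found. The 6 RNA-seq libraries came from 3 BrmKO and 3 WT mice on a background given as C56Bl/6. BrmKO mice (Brm-/-) lack Brm, the older name of Smarca2, the motor of SWI/SNF complexes that slide nucleosomes. The labels give no age, no sex, no Cre and not which part of Brm was removed. The question was which receptors LSK cells express, where Hnf4a stands among them, and what differs without BRM.

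Receptors fall into a few modes of action. Steroid receptors such as the glucocorticoid receptor bind DNA as pairs of the same protein, whereas the receptors for retinoic acid, thyroid hormone, vitamin D, fatty acids and oxysterols bind beside a retinoid X receptor (RXR). HNF4 proteins pair with themselves and hold a fatty acid without acting as classical ligand sensors. NR4A receptors need no ligand and are set by how much of them is made, as immediate early genes. In haematopoiesis retinoic acid receptors are best known for granulocyte differentiation and for stem cell dormancy, NR4A receptors for quiescence and monocyte fate, and HNF4A is best known from liver, gut, kidney and pancreas rather than from blood.

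Libraries held 29.18 to 33.29 M reads in genes in BrmKO and 28.01 to 36.46 M in WT. Smarca2 itself had 805, 761 and 958 reads in BrmKO and 6284, 6932 and 4270 in WT, so its level in BrmKO was 15.1% of that in WT. Both libraries numbered 3 had more reads outside genes than the rest, at 9.29% in BrmKO and 8.41% in WT, against 5.79% to 6.61% in the other 4. Markers of the gate were present in every library, with Kit, Ly6a, Cd34, Flt3, Mecom, Hlf, Procr and Meis1 summing to 2900 to 3010 CPM in BrmKO and 2650 to 2870 CPM in WT (CPM, reads per 1 M reads of the library size as scaled by edgeR's TMM factors), without overlap. Levels of different receptors are compared below per length, as RPKM: reads per kilobase of the gene's merged exons per 1 M reads of the same scaled library size. A receptor counts as expressed in a group at a mean of at least 1 RPKM.

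Hnf4a is given with the sequence before its annotated starts, since the counts are of the whole gene and both starts feed into them. The gene (ENSMUSG00000017950.16) covers chr2:163506808-163572910 on the plus strand of GRCm38, with 4828 bases of merged exon. RefSeq (GRCm38.p6) gives an upstream start, known as P2, and a downstream start, known as P1, whose windows lie 40298 bases apart. P1 is the start best known from liver and P2 from the pancreas. Each stretch is the 250 bases before a start, read 5′ to 3′, with matches to the searched motifs in capitals.
Hnf4a upstream start, chr2:163506607-163506856, plus strand: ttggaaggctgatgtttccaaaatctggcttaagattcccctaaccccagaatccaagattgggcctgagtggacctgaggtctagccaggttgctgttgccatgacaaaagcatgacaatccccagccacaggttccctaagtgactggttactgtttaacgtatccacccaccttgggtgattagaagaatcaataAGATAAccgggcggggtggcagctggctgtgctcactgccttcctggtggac
Hnf4a downstream start, chr2:163546905-163547154, plus strand: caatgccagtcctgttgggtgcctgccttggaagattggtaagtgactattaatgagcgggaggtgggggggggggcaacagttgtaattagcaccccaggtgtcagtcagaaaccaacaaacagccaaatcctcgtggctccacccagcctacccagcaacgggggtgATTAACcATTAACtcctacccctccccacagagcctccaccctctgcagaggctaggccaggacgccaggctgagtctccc
In the upstream window the capitals mark AGATAA, which is a motif of GATA factors. It begins 52 bases before the start and is held on either strand by 9.99% of the 32851 windows of this length in the table. In the downstream window they mark the reverse strand of GTTAAT, which begins 81 and 74 bases before the start and is held by 6.43% of all windows. The nuclear receptor core motif AGGTCA, the ETS motif CCGGAAG and the AP1-like motif TGCGTCA were not among the letters of either window, and no motif overlapped another. Both windows are poor in CpG, with 3 upstream and 4 downstream. The counts cannot say which start the reads came from.

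The windows of 3 further members are shown because the results turn on their levels: Rxrb was high and even over all libraries, Rxrg was low with WT libraries that differed, and Nr4a1 was the expressed member whose level varied most between libraries.
Rxrb, chr17:34031562-34031811, plus strand: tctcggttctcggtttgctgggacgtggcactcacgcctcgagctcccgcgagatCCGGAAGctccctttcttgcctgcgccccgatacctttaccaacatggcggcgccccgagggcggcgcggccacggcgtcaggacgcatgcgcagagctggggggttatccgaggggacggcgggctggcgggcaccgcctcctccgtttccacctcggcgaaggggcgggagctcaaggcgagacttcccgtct
Rxrg, chr1:167598112-167598361, plus strand: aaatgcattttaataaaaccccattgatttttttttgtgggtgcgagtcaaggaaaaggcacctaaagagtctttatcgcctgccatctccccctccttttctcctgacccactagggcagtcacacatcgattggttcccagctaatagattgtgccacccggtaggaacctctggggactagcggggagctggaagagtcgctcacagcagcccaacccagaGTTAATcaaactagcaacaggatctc
Nr4a1, chr15:101266596-101266845, plus strand: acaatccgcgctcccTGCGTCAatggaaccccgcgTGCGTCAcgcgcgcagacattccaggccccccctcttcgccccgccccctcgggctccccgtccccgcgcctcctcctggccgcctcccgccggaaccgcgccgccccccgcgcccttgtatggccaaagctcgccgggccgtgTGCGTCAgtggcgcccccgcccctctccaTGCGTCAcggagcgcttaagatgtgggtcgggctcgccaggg
The capitals mark CCGGAAG in Rxrb (6.91% of all windows), GTTAAT in Rxrg, 26 bases before its start, and TGCGTCA in Nr4a1 (1.75% of all windows). Nr4a1 holds TGCGTCA 4 times, beginning 235, 215, 71 and 42 bases before its start, and was the only one of the 42 members in the table with this motif. The Rxrb window has 31 CpG, that of Nr4a1 34 and that of Rxrg 6, where the median over all windows was 6. A second annotated start of Rxrb has 39 CpG and that of Rxrg 7. The window of this second Rxrg start, not shown, holds AGGTCA, beginning 88 bases before the start (14.0% of all windows). Taking each gene's window with the most CpG, the 19 members in the table that were expressed in either group had a median of 15 (3 to 44), the 18 with low counts 14 (1 to 38) and the 5 without a read 11 (2 to 22), so these ranges overlapped widely.

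LSK cells expressed 19 of the 46 receptors in BrmKO and 21 in WT. The 19 were expressed in both groups, and Rora and Rxrg reached 1 RPKM only in the WT mean. A further 9 members passed the low-count filter below that level in both groups, which makes 30 that were tested. Of the other 16, 9 had a few reads and 7 had 0 reads in all 6 libraries. The 7 were Esrrb, Hnf4g, Nr0b1, Nr1i2, Nr2e1, Nr2f1 and Nr5a1. With 3 reads as the limit that a count of 0 allows, each could still stand at up to 0.0872 to 0.105 CPM per library in BrmKO and 0.0828 to 0.105 CPM in WT. Those with a few reads were Nr1i3, Esrrg, Nr2f2, Nr1h4, Esr2, Nr2e3, Nr5a2, Ppara and Rorb, with at most 20 reads in a library. Receptors best known from adrenal, gonad, retina or brain, such as Nr0b1, Nr5a1, Nr2e1 and Nr2e3, were thus at or near 0, as were the liver receptors Nr1i2, Nr1i3 and Nr1h4, while Hnf4a was not. Tomm40l on the other strand shares 74.9% of the exon bases of Nr1i3, so its low count is uncertain. The summed level of the family was 1040 ± 172 CPM in BrmKO and 1120 ± 234 CPM in WT (SD, n = 3).

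**Figure D1:**
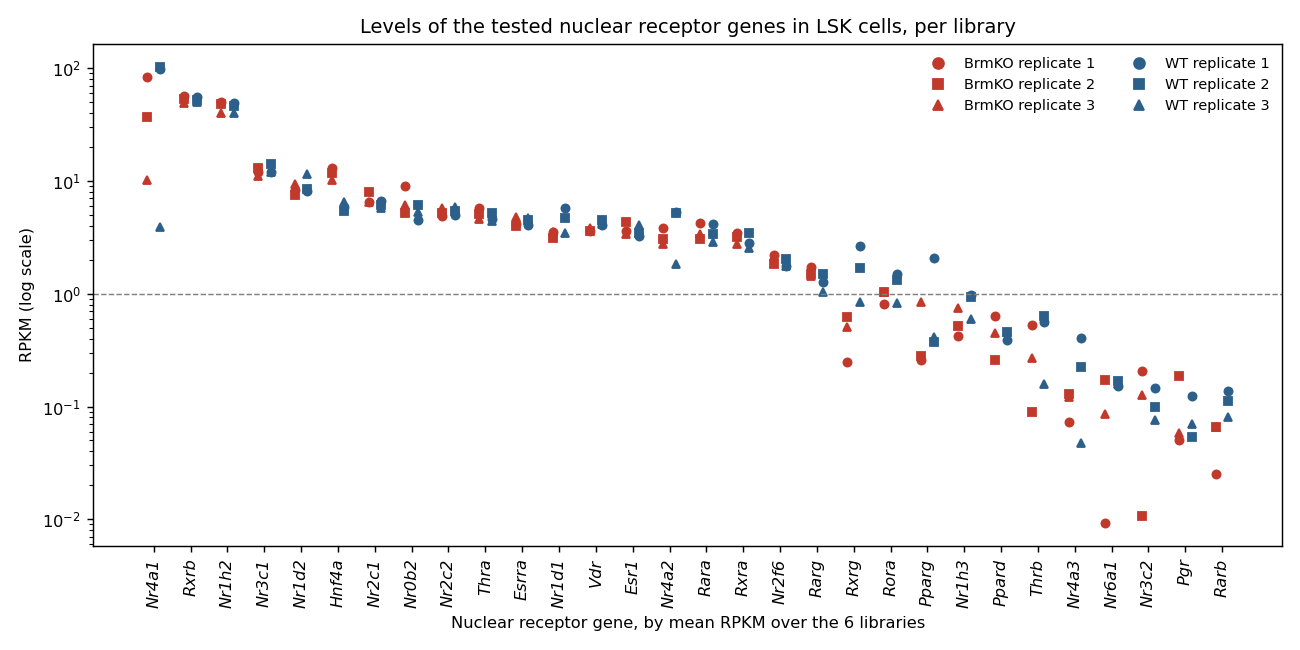
RPKM (log axis) of the 30 tested nuclear receptor genes in each library, BrmKO in red and WT in blue, with a marker shape per replicate number and a dashed line at 1 RPKM. Rxrb and Nr1h2 are high in every library, Hnf4a lies higher in all 3 BrmKO libraries than in any WT library, and Nr4a1 is spread widely in both genotypes.

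Hnf4a ranked in the upper part of the family. By mean RPKM it was rank 5 of 46 in BrmKO and rank 7 in WT, and it was rank 4, 5 and 5 in BrmKO replicates 1 to 3 and rank 7, 8 and 5 in WT replicates 1 to 3. Its level was 13.1, 11.7 and 10.2 RPKM in the BrmKO libraries and 5.89, 5.47 and 6.55 RPKM in the WT libraries. Every BrmKO library thus lay above every WT library. Among 12869 tested protein-coding genes it stood at percentile 61.1 in BrmKO and 45.2 in WT. In BrmKO its mean of 11.7 ± 1.45 RPKM lay within the spread of Nr3c1 above it (12.1 ± 0.989), and Nr1d2 came next below (8.40 ± 0.951). In WT its mean of 5.97 ± 0.548 RPKM was within the spread of Nr2c1 above it (6.17 ± 0.456), so their order is not settled. It lay above the spread of Nr2c2 next below (5.41 ± 0.405). Single WT libraries of Hnf4a (5.47 to 6.55 RPKM) and Nr2c2 (5.03 to 5.84 RPKM) still overlapped. With the longest transcript in place of merged exons, Hnf4a was still rank 5 in BrmKO but rank 11 in WT.

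Hnf4a was the only member that rose or fell past the threshold. Its log2 fold change was 0.97 ± 0.12 (BrmKO over WT; edgeR quasi-likelihood test, Benjamini-Hochberg adjusted p = 0.0271), or 1.95-fold. Over all 15691 tested genes 0.14% passed, 0.0829% as higher and 0.0574% as lower in BrmKO, against 1 of 30 tested receptors as higher and 0 as lower. Hnf4a was already known as called when these receptors were chosen, so the call is a description and no separate support. Leaving out BrmKO replicate 1 gave an adjusted p of 0.132, BrmKO replicate 2 gave 0.136, WT replicate 1 gave 0.179 and WT replicate 2 gave 0.175, so each of these 4 fits ended the call, while the log2 fold change stayed between 0.88 and 1.05 over the 6 fits with a library left out. In bulk RNA a change in the number of cells that make a transcript and a change in its amount per cell cannot be told apart.

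The surroundings of Hnf4a were then read in the same fit. Of 14 tested genes that start within 500 kb of its start, 0 passed, against 0.14% of all tested genes. An unadjusted p under 0.05 was met by 2 of the 14, against 5.85% of all tested genes. A log2 fold change of less than 0.2 in size was found for 11, where the median size over all tested genes was 0.12. Fitm2, a lipid droplet gene 34.2 kb upstream, had 0.12 ± 0.20, and Ttpal, 95.5 kb downstream, had 0.08 ± 0.11. Tox2 had -0.82 ± 0.32 and Ccn5 -2.54 ± 1.03, where Ccn5 had 24 reads in BrmKO and 153 in WT. Hnf4aos, an antisense gene at the upstream end, had 0 reads in BrmKO and 0 in WT. No other gene shares exon bases with Hnf4a, and no near-identical copy of its transcript was found.

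**Figure D2:**
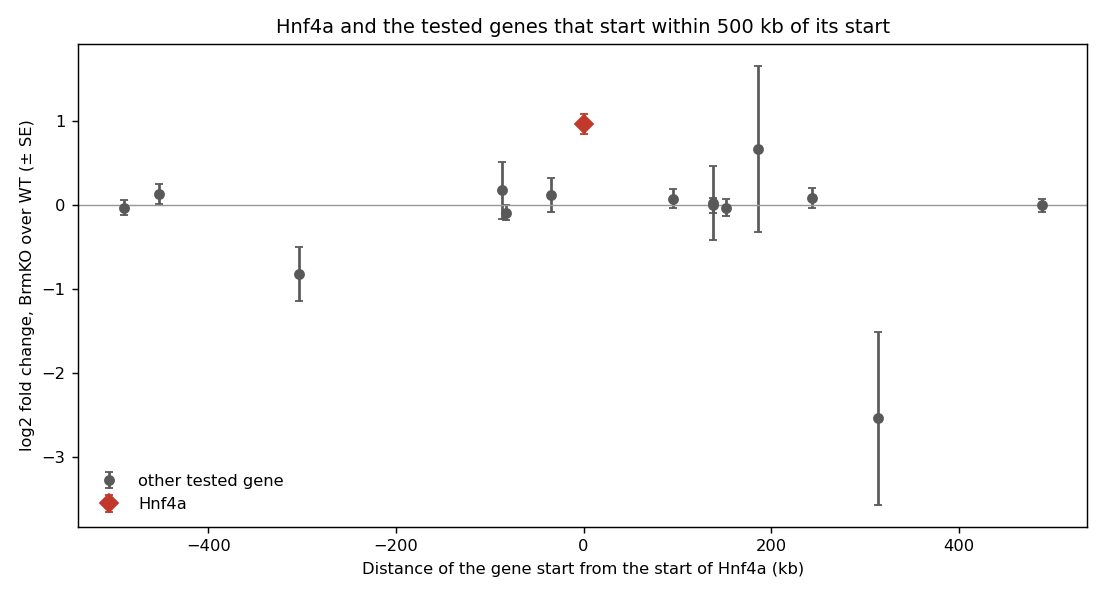
Log2 fold change, BrmKO over WT, with its SE, against the distance of each gene's start from the start of Hnf4a, for the 14 tested genes that start within 500 kb (grey) and Hnf4a (red). Hnf4a lies at 0.97, and 11 of the 14 lie within 0.2 of 0.

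Genes that HNF4A is known to switch on in liver were largely silent in both genotypes. Of 24 such genes, 11 had 0 reads in all libraries, among them Ttr, Pck1, G6pc, Apoc3 and Cyp7a1, and only 6 passed the filter. None of the 6 passed the test, and their median log2 fold change was 0.31, against -0.01 over all tested genes. Apob, the core protein of lipoprotein particles, had 1.44 ± 0.463 CPM in BrmKO and 0.404 ± 0.36 CPM in WT (1.80 ± 0.86, adjusted p = 0.871). F10, coagulation factor X, had a log2 fold change of 0.39 ± 0.27 and Cyp8b1, a bile acid enzyme, of 0.87 ± 1.04. Hepatocyte markers summed to 0.0697 to 0.262 CPM in BrmKO and 0.105 to 0.331 CPM in WT, and Alb, Ttr, Serpina1a, Fgb, Tat and Cyp2e1, 6 of its 8 genes, were at 0 reads. Of the gut epithelial markers Cdx2 and Fabp2 were at 0 reads, and the 4 together summed to 1.28 to 1.97 CPM in BrmKO and 0.844 to 2.65 CPM in WT.

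Nr0b2, which encodes SHP, a receptor without a DNA-binding domain that represses others and that HNF4A and the bile acid receptor induce in liver, ranked 8 in BrmKO and 9 in WT. It had 8.98, 5.20 and 6.09 RPKM in BrmKO and 4.51, 6.12 and 5.28 RPKM in WT. Only BrmKO replicate 1 stood above the WT range (0.35 ± 0.25, adjusted p = 0.999). Its bile acid partner Nr1h4 (FXR) had 3 reads in BrmKO and 2 in WT, and the other HNF4 gene, Hnf4g, had none.

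Retinoid X receptors, the shared partners, were present in every library through Rxrb. It was the highest member in BrmKO and rank 2 in WT, with 56.9, 53.1 and 48.7 RPKM in BrmKO and 55.8, 52.8 and 49.9 RPKM in WT. The groups coincided (0.00 ± 0.09, adjusted p = 0.999). Rxra was far lower, at 3.14 ± 0.356 RPKM in BrmKO and 2.93 ± 0.459 RPKM in WT. Rxrg, whose known sites are muscle, brain and retina, had 17, 41 and 40 reads in BrmKO and 220, 127 and 55 in WT, that is 0.247, 0.622 and 0.506 RPKM in BrmKO and 2.64, 1.70 and 0.842 RPKM in WT. Every BrmKO library lay below every WT library, and the WT libraries differed 3.14-fold among themselves. Its log2 fold change of -1.91 ± 0.49 did not pass (adjusted p = 0.351), did pass with DESeq2 (adjusted p = 0.0223), and was -1.47 without WT replicate 1. Markers of stromal and endothelial cells summed to 196, 186 and 237 CPM in BrmKO and 340, 229 and 186 CPM in WT, and B cell markers to 6.35, 5.47 and 6.02 CPM in BrmKO and 15.4, 11.9 and 5.10 CPM in WT. Both sums ran in the same order as Rxrg over the WT libraries. Over the BrmKO libraries they did not, since both sums were lowest in replicate 2, where Rxrg was highest. In every library the largest part of the stromal and endothelial sum was Pecam1. It had 152, 165 and 140 CPM in BrmKO and 156, 158 and 146 CPM in WT (-0.01 ± 0.09). Col1a1, the 1 gene of this list above 0, had 17.7, 2.33 and 58 CPM in BrmKO and 26.1, 1.45 and 1.65 CPM in WT. Of the 8 stromal and endothelial genes, 7 had a log2 fold change below 0 and 4 had groups that did not overlap, among them Pdgfra with 0 reads in all BrmKO libraries. Over all 15691 tested genes 8040 lay below 0 and 11.1% had groups that did not overlap, and 0 of the 8 passed. Of the 3 tested B cell genes 3 lay below 0 and 0 passed. Their part in the level of Rxrg was not tested.

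Retinoic acid receptors were carried by Rara, at 3.57 ± 0.644 RPKM in BrmKO and 3.49 ± 0.674 RPKM in WT, and by Rarg, the form tied to stem cell self-renewal in mice, at 1.55 ± 0.145 RPKM in BrmKO and 1.28 ± 0.235 RPKM in WT. Neither passed (0.03 ± 0.19 and 0.28 ± 0.22). Rarb, itself a classical retinoic acid target, had 4, 10 and 12 reads in BrmKO and 26, 19 and 12 in WT. On the normalised scale its groups did not overlap, at 0.0254 to 0.0663 RPKM in BrmKO and 0.0801 to 0.136 RPKM in WT, with a log2 fold change of -1.04 ± 0.59 (adjusted p = 0.939). Top2b on the other strand shares 34.1% of the exon bases of Rarb, and reads there are ambiguous without strand. Of 17 genes of retinoid metabolism 7 were tested and 0 passed. Aldh1a1, which makes retinoic acid, had 16.7 ± 2.91 CPM in BrmKO and 13.4 ± 1.94 CPM in WT, Aldh1a3 had a log2 fold change of -0.76 ± 0.75 and Rdh10 of -0.09 ± 0.20. Of 12 target genes of these receptors 7 were tested, 0 passed and the median log2 fold change was -0.03. Hic1, Rarb and Tgm2 had the smallest p, with Hic1 at -1.49 ± 0.72 and Tgm2 at -0.25 ± 0.22.

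Oxysterol receptors were carried by a single gene. Nr1h2 (LXR beta) was rank 2 in BrmKO and rank 3 in WT, with 50.1, 48.6 and 39.7 RPKM in BrmKO and 49.6, 46.7 and 39.9 RPKM in WT. Replicate 3 was lowest in both genotypes, and the groups overlapped (0.02 ± 0.12, adjusted p = 0.999). Nr1h3 (LXR alpha) lay far below, at 0.563 ± 0.169 RPKM in BrmKO and 0.840 ± 0.208 RPKM in WT. Of 14 LXR target genes, which export cholesterol and make fatty acids, 11 were tested and 0 passed, with a median of 0.05. Lpl, a lipase that stromal cells also make, had -0.99 ± 0.33, and Scd2 and Apoe had 0.16 ± 0.09 and -0.29 ± 0.18.

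Fatty acid receptors were low by the group mean in both genotypes. Ppara had 3 reads in BrmKO and 1 in WT. Ppard, the form linked to fatty acid oxidation in stem cells, had 0.447 ± 0.186 RPKM in BrmKO and 0.433 ± 0.0408 RPKM in WT. Pparg, the adipocyte regulator, had 0.260, 0.283 and 0.847 RPKM in BrmKO and 2.07, 0.375 and 0.417 RPKM in WT. WT replicate 1 alone stood apart, and the log2 fold change of -1.04 ± 0.72 (adjusted p = 0.991) was 0.23 without it. In WT replicate 1 the adipocyte genes Fabp4 and Adipoq were also highest, at 20.1 and 4.17 CPM, against 2.95 to 4.92 and 0.457 to 1.08 CPM in the other WT libraries. In BrmKO Fabp4 had 0.906 to 3.81 CPM and Adipoq 0.0348 to 0.568 CPM, and their part in the level of Pparg was not tested. Of 22 PPAR targets 19 were tested and 0 passed, with a median of 0.02. Adipoq and Fabp4 had -2.44 ± 0.93 and -2.13 ± 0.81, and Cpt1a, the gate of mitochondrial fatty acid import, had 0.28 ± 0.12 (350 ± 47.9 CPM in BrmKO and 288 ± 23 CPM in WT, adjusted p = 0.802).

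**Figure D3:**
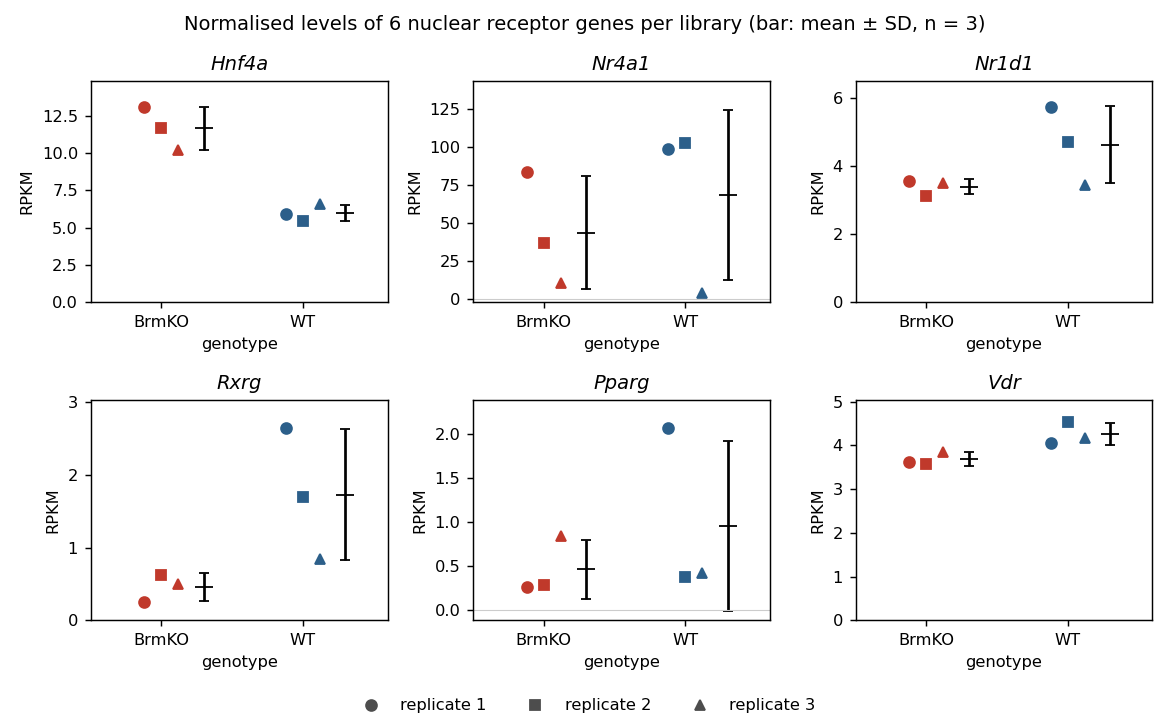
RPKM in each library for 6 members, BrmKO (red) left of WT (blue), with a marker shape per replicate number and the mean ± SD (n = 3) as a black bar. Hnf4a, Rxrg and Vdr have no overlap between the genotypes, Pparg rests on WT replicate 1, and Nr4a1 is lowest in replicate 3 of both genotypes.

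Of the steroid receptors, Nr3c1, the glucocorticoid receptor, was rank 4 in both groups, with 91.5, 101 and 85.6 CPM in BrmKO and 92.2, 109 and 92.6 CPM in WT. The groups overlapped (-0.08 ± 0.10, adjusted p = 0.999). Esr1, through which oestrogen raises stem cell division in mice, was also expressed, at 3.79 ± 0.476 RPKM in BrmKO and 3.61 ± 0.401 RPKM in WT. The mineralocorticoid and progesterone receptor genes Nr3c2 and Pgr were low in both, at 0.0822 to 0.114 RPKM on average, and Esr2 had 5 reads in BrmKO, all in replicate 3, and 0 in WT. Of 15 glucocorticoid targets 14 were tested, 0 passed and the median was 0.00. Dusp1, a phosphatase that switches off stress kinases, had 2800 ± 341 CPM in BrmKO and 1860 ± 531 CPM in WT (0.59 ± 0.18, adjusted p = 0.590). Il1r2 had -0.85 ± 0.33 and Klf9 -0.51 ± 0.20, so the members with the smallest p did not share a sign. Esrra, an orphan receptor that drives mitochondrial genes, had 4.15, 4.02 and 4.83 RPKM in BrmKO and 4.08, 4.52 and 4.66 RPKM in WT, and the groups overlapped (-0.03 ± 0.14). Of 14 oestrogen and ERR targets 12 were tested and 0 passed, with Cxcl12, which is also on the stromal and endothelial marker list, at -2.21 ± 1.16 and Xbp1 at -0.18 ± 0.14.

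Among the NR4A receptors, Nr4a1 varied more between libraries of a genotype than any other expressed member. Nr4a1 (NUR77), whose promoter window is given above, had 83.7, 36.7 and 10.2 RPKM in BrmKO and 98.8, 103 and 3.93 RPKM in WT. Its highest library exceeded its lowest 8.23-fold within BrmKO and 26.2-fold within WT, and replicate 3 was lowest in both. Its log2 fold change of -0.66 ± 1.40 was smaller than its own error (adjusted p = 0.999), and it was -1.55 without BrmKO replicate 1, -1.21 without WT replicate 3, -0.55 without BrmKO replicate 2 and -0.30 to -0.19 without BrmKO replicate 3, WT replicate 1 or WT replicate 2. The same libraries had the largest share of reads outside genes, and the part of that in the level of Nr4a1 was not tested. Nr4a2 had 3.85, 3.05 and 2.77 RPKM in BrmKO and 5.34, 5.20 and 1.83 RPKM in WT, again lowest in replicate 3 of both. Nr4a3 had 0.0726, 0.128 and 0.121 RPKM in BrmKO and 0.406, 0.226 and 0.0470 RPKM in WT, a log2 fold change of -1.08 ± 0.68 (adjusted p = 0.962) that was -0.35 without WT replicate 1. Nr4a1 alone held 24.1%, 12.5% and 4.08% of the family's summed CPM in BrmKO and 27.7%, 28.7% and 1.62% in WT. Without it, a sum chosen after its values were seen, the family stood at 925, 901 and 839 CPM in BrmKO and 903, 899 and 837 CPM in WT.

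Other immediate early genes followed Nr4a1 in part. Atf3, a stress-induced factor, had 58.9, 20.5 and 2.65 CPM in BrmKO and 44.5, 54.7 and 1.72 CPM in WT, and Ier3 had 75.9, 54.4 and 43.4 CPM in BrmKO and 86.6, 75.8 and 35.4 CPM in WT. Both were lowest in replicate 3 of each genotype, as Nr4a1 was, and both were chosen after their values were seen. Junb, chosen in the same way, ran in the opposite order and was highest in replicate 3 of each genotype. It had 498, 539 and 553 CPM in BrmKO and 484, 517 and 666 CPM in WT. Fos had 4580, 4710 and 3280 CPM in BrmKO and 2090, 3690 and 2100 CPM in WT, so WT replicate 1 was low in Fos and high in Nr4a1. The 20 immediate early genes summed to 15100 to 18500 CPM in BrmKO and 11200 to 16900 CPM in WT. All 20 were tested and 0 passed, with a median of 0.17. Klf4 had 33.3 ± 10.7 CPM in BrmKO and 12.4 ± 4.49 CPM in WT (1.43 ± 0.30, adjusted p = 0.194), Dusp1 is given above, and Fos had 0.67 ± 0.23.

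Clock receptors repress or activate the gene of the clock factor BMAL1, Arntl. Nr1d2 (REV-ERB beta) was rank 6 in BrmKO and rank 5 in WT, with 8.28, 7.52 and 9.41 RPKM in BrmKO and 8.20, 8.42 and 11.6 RPKM in WT (-0.16 ± 0.15). Replicate 3 was highest in each. Nr1d1 (REV-ERB alpha) had 3.55, 3.13 and 3.51 RPKM in BrmKO and 5.74, 4.72 and 3.45 RPKM in WT. WT replicates 1 and 2 lay above all BrmKO libraries and WT replicate 3 among them (-0.45 ± 0.20, adjusted p = 0.841). Rora had 0.962 ± 0.131 RPKM in BrmKO and 1.21 ± 0.346 RPKM in WT, across the limit set for expression (-0.33 ± 0.23). Of 17 clock genes 16 were tested and 0 passed, with a median of -0.06. Hlf, which also marks stem cells, had 94.7 ± 11.5 CPM in BrmKO and 72.2 ± 11.8 CPM in WT (0.39 ± 0.14), Per3 had -0.29 ± 0.17 and Arntl 0.25 ± 0.16. The labels give no time of day.

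Thyroid hormone and vitamin D receptors were present. Thra had 5.72, 5.09 and 4.63 RPKM in BrmKO and 4.63, 5.25 and 4.43 RPKM in WT, with overlap (0.11 ± 0.13). It shares 5.70% of its exon bases with Nr1d1 on the other strand. Thrb was low, at 0.295 ± 0.218 RPKM in BrmKO and 0.451 ± 0.257 RPKM in WT. Vdr had 3.63, 3.58 and 3.86 RPKM in BrmKO and 4.06, 4.54 and 4.16 RPKM in WT. The groups did not overlap, but the difference was small and did not pass (-0.20 ± 0.12, adjusted p = 0.951). Cyp24a1, the best known vitamin D target, had 0 reads in all libraries. Of 11 targets of the vitamin D, thyroid and xenobiotic receptors 4 were tested and 0 passed, with Klf9 and Dio2 at -0.51 ± 0.20 and -0.69 ± 0.28, Thrsp at -1.87 ± 0.95 and Abcb1a, a drug efflux pump, at 0.67 ± 0.56, and a median of -0.60. Their summed level was 17.7 to 18.9 CPM in BrmKO and 20.6 to 30.0 CPM in WT.

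Besides Hnf4a, the orphan receptors of the NR2 class were led by the testicular receptors, which repress fetal globin genes. Nr2c1 (TR2) had 6.57, 7.93 and 6.53 RPKM in BrmKO and 6.67, 6.07 and 5.78 RPKM in WT. Nr2c2 (TR4) had 4.90, 5.18 and 5.75 RPKM in BrmKO and 5.03, 5.38 and 5.84 RPKM in WT. In each the groups overlapped (0.18 ± 0.12 and -0.04 ± 0.10). Nr2f6 (EAR2), which restrains differentiation of blood progenitors, had 2.07 ± 0.203 RPKM in BrmKO and 1.87 ± 0.161 RPKM in WT. Mrps25 shares 30.7% of the exon bases of Nr2c2 and Ocel1 54.4% of those of Nr2f6, each on the other strand, so these levels are uncertain. Nr6a1 (GCNF) had 3, 53 and 32 reads in BrmKO and 59, 59 and 49 in WT.

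Across the family, only the difference of Hnf4a passed the threshold, 1 of 30 tested members against 0.14% of all tested genes. Of the 30 tested members, 14 had a log2 fold change above 0 and 16 below, with a median of -0.03. The median size of the log2 fold change was 0.23, against 0.12 over all tested genes. An unadjusted p under 0.05 was met by 2, Hnf4a and Rxrg (6.67%), against 5.85% of all tested genes. Groups did not overlap for 4, Hnf4a, Rxrg, Vdr and Rarb (13.3%), against 11.1% of all tested genes. A log2 fold change of at least 1 in size was met by 4, Rxrg, Nr4a3, Pparg and Rarb (13.3%), against 4.37% of all tested genes. None of the 4 had more than 221 reads in a library. Of the 5 members with the most reads, Rxrb, Nr1h2, Nr3c1 and Nr2c2 lay between -0.08 and 0.02 with an SE of at most 0.12, and Nr4a1 was at -0.66 ± 1.40. The summed level of the family overlapped between the groups, at 875 to 1220 CPM in BrmKO and 851 to 1260 CPM in WT.

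**Figure D4:**
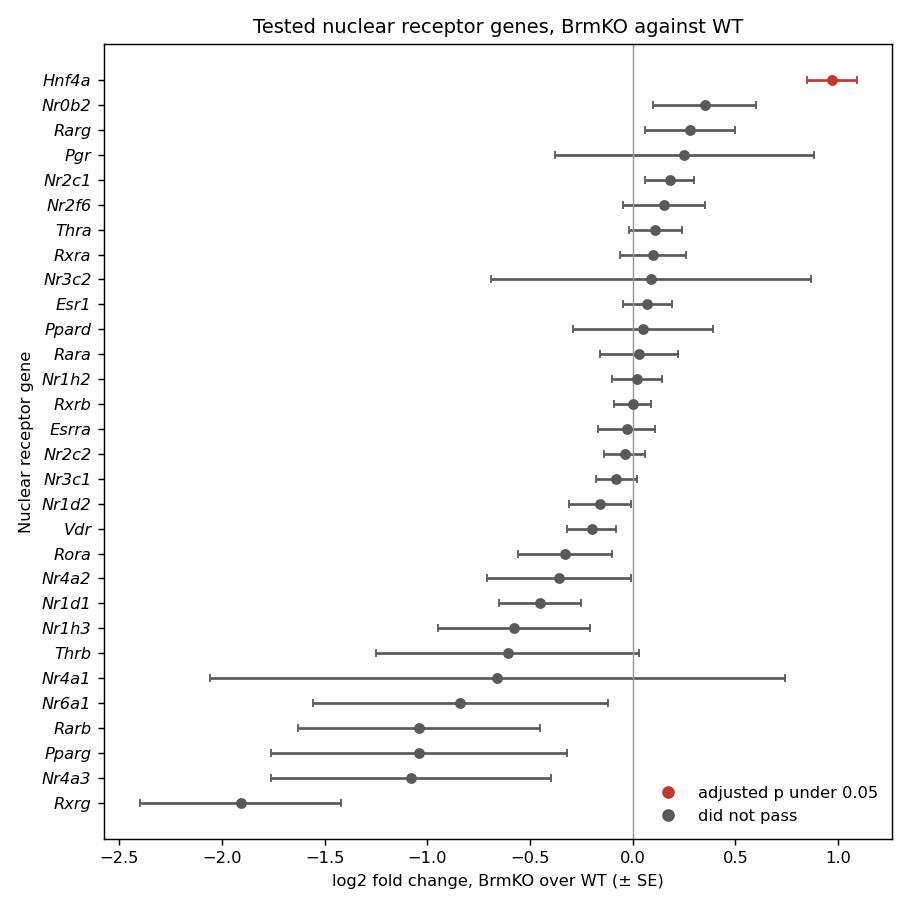
Log2 fold change, BrmKO over WT, with its SE for the 30 tested nuclear receptor genes, ordered by value. Hnf4a (red, 0.97) is the only one that passed, and Rxrg (-1.91) lies lowest without passing.

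Receptors recruit coregulators to open or close chromatin. Of 15 coactivator genes all 15 were tested and 0 passed, with a median of 0.00, while 13.3% had an unadjusted p under 0.05, against 5.85% of all tested genes. This share was 20% for the immediate early genes, 21.4% for the glucocorticoid targets and 15.8% for the PPAR targets. It was 50% of the 4 tested vitamin D, thyroid and xenobiotic targets. For corepressors, retinoid metabolism and the targets of HNF4A, of retinoic acid receptors and of oestrogen receptors and ERR it was 0%. Ppargc1b had 17.1 ± 2.27 CPM in BrmKO and 22.3 ± 1.34 CPM in WT (-0.38 ± 0.14, adjusted p = 0.748). Its relative Ppargc1a, a partner of HNF4A, PPARs and ERR alpha in liver and muscle, had 2.39 ± 0.851 CPM in BrmKO and 1.14 ± 0.531 CPM in WT (1.07 ± 0.46, adjusted p = 0.828). Asxl1 had -0.11 ± 0.10. Of 12 corepressor genes 11 were tested, all but Hr, and 0 passed, with a median of -0.04, and Lcor and Nrip1 had -0.45 ± 0.22 and -0.12 ± 0.08.

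Markers of other marrow cells were summed in each library, and these sums were not tested. Megakaryocyte markers summed to 387 to 546 CPM in BrmKO and 574 to 757 CPM in WT, and mast cell and basophil markers to 103 to 138 CPM in BrmKO and 158 to 179 CPM in WT, without overlap. Pf4, a platelet chemokine, had 103 to 109 CPM in BrmKO and 148 to 169 CPM in WT and fell (-0.60 ± 0.09, adjusted p = 0.0391), a call that was lost whichever library was left out (adjusted p = 0.0564 to 0.291). All 4 tested megakaryocyte genes and 3 of 4 mast cell and basophil genes lay below 0, and apart from Pf4 none of them passed. Most of the megakaryocyte sum was Itga2b, at 258 to 414 CPM in BrmKO and 340 to 569 CPM in WT, with overlap. Of the 4 tested megakaryocyte genes only Pf4 had groups that did not overlap (25%, against 11.1% of all tested genes). Sums of the other lists of marrow cell markers overlapped. Monocyte and macrophage markers had 231 to 273 CPM in BrmKO and 267 to 326 CPM in WT, and neutrophil markers 4.42 to 14.4 CPM in BrmKO and 4.52 to 21.8 CPM in WT. Erythroid markers had 447 to 765 CPM in BrmKO and 498 to 800 CPM in WT. Above 0 lay 1 of 6 tested monocyte and macrophage genes (16.7%), 0 of 4 neutrophil genes and 2 of 5 erythroid genes (40%). Over all tested genes the share was 48.8%, and none of these marker genes passed. T and NK cell markers had 234 to 243 CPM in BrmKO and 229 to 262 CPM in WT, with Cd3e at 0 reads in all libraries. Most of this sum was Nkg7, at 225 to 235 CPM in BrmKO and 225 to 258 CPM in WT. Of the 5 tested genes 4 lay above 0 (80%, against 48.8% of all tested genes) and 0 passed. Groups did not overlap for 40% of them, against 11.1% of all tested genes. Ncr1 had 0.602 to 1.48 CPM in BrmKO and 0.211 to 0.221 CPM in WT (2.22 ± 0.55, adjusted p = 0.327). The part of these cell types in the level of Hnf4a was not tested.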

How the data were processed

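RNA was measured in 6 libraries of sorted LSK cells, 3 BrmKO and 3 WT, from bone marrow depleted of lineage-positive cells. Per the labels' protocols, libraries were made with SMART-Seq v4, a kit without strand marks or molecular identifiers, so limits drawn from read numbers cover counting error only. The authors deposited raw counts for each Ensembl gene, 1 file a library, with no scaling. Per the submitters' processing notes the tools were bcl2fastq, FastQC, STAR, HTSeq and DESeq2 on GRCm38, with no version, strand setting or annotation release named there. The 5 rows that name no gene held 18.9% to 22.8% of each library's entries and were left out of library sizes and tests.

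Symbols, positions and exon lengths came from GENCODE M21 (55227 of 55487 genes matched), and promoter sequences from RefSeq (GRCm38.p6; 42 of 46 receptors matched). The test was edgeR's quasi-likelihood test (edgeR 4.0.16, R 4.3.3, robust dispersion, TMM, filterByExpr) over 15691 genes, with Benjamini-Hochberg adjustment over all of them and a threshold of 0.05. Fold changes are log2, BrmKO over WT, ± SE, and other errors are SD over 3 libraries. That the mice are separate is read from the study's design text. DESeq2 1.42.0, limma 3.58.1, other scalings and filters, a replicate block and left-out libraries were alternatives. Copies were searched with minimap2 2.31 (95% identity over 50% of the length). Every 2 libraries of a genotype differed beyond counting noise (chi-square at least 13.2 per degree of freedom). The fits were tested on simulated data.

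The receptors and gene lists were chosen with earlier results of these data known. Values per library are given for Hnf4a, the 12 receptors highest in mean RPKM and those with an unadjusted p under 0.05 or a log2 fold change of at least 1 in size; from each related list up to 3 genes with the smallest p are named. A few genes that this rule names are not reported here. Other names were chosen after their values were seen.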

Additional observations from a re-analysis of the deposited data

How the results depend on the processing

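Hnf4a stayed above 0 in all 15 alternatives, with a log2 fold change of 0.88 to 1.13, and passed in 11 of them. It passed with DESeq2, limma-voom, RLE or upper-quartile factors, no low-count filter, at least 1 CPM in 3 libraries, non-robust dispersion, the replicate block and both libraries numbered 3 left out, an alternative chosen after seeing the data (adjusted p = 5.91e-09 to 0.0383). With each library left out in turn the log2 fold change ranged from 0.88 to 1.05, the genes called from 6 to 36 and the receptors called from 0 to 1. DESeq2 called 150 genes and 2 receptors, Hnf4a and Rxrg, and no low-count filter called 58 genes, against 22 and 1. The replicate block called 25 genes, 17 of them among the 22, with Hnf4a at adjusted p = 0.0383. Libraries of the same number deviated together only in part (correlations of 0.13, 0.06 and 0.33, and BrmKO replicate 1 correlated best with WT replicate 2), so the numbers were not taken to pair the mice. The libraries numbered 3 were nonetheless closer to each other (chi-square of 18.7 per degree of freedom) than to those of their own genotype (28.9 to 43.8).

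By the longest transcript Hnf4a was rank 11 in WT, and 20 receptors in BrmKO and 23 in WT were expressed. By CPM without a length it was rank 6 in BrmKO, and 25 receptors in BrmKO and 27 in WT reached 1 CPM. With a library left out the rank in BrmKO was 4 to 5, and 19 to 20 receptors were expressed in BrmKO. Of the receptors, 12 changed sign in 29 of 446 refits, none past the threshold. With limma-voom these were Rxrb (0.00), Ppard (-0.02) and Nr3c2 (-0.55), with the replicate block Ppard (-0.03) and Nr3c2 (-0.28), and without both libraries numbered 3 Rara (-0.06) and Nr3c2 (-0.17). With a library left out in turn the ranges were -0.05 to 0.06 for Rxrb, -0.06 to 0.12 for Nr1h2, -0.14 to 0.01 for Nr3c1, -0.25 to 0.02 for Nr1d2, -0.10 to 0.02 for Nr2c2, -0.11 to 0.02 for Esrra, -0.03 to 0.16 for Esr1, -0.11 to 0.19 for Rara, -1.81 to 0.23 for Pparg, -0.28 to 0.32 for Ppard, -0.63 to 0.62 for Nr3c2 and -0.60 to 0.66 for Pgr. The cause of these shifts was not tested. Depth limits the 16 receptors that were not tested.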
